A study of Mus musculus with 17 samples.

Results

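The genes described here encode receptors for adenosine (Adora1 and Adora2a), muscarinic acetylcholine receptors (Chrm1 and Chrm4) and orphan receptors (Gpr6 and Gpr52) of striatal neurons, 6 genes of the 21756 whose surroundings were measured. Chromatin accessibility around them was read from peaks of ATAC-seq, an assay in which a transposase cuts open DNA. Members were the regions made by merging overlapping peaks of all 17 libraries that touched one of these gene bodies or the 20 kb on either side of it. There were 98 such regions of 281189 in the genome, and 60 of them (of 147420) were called in at least 2 libraries of 1 group and were kept. Of the 60 kept regions, 20 were called in all 17 libraries, 33.3% against 25% of all kept regions, and the other 40 in fewer.

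Neuronal (NeuN+) nuclei had been sorted from the nucleus accumbens (NAc) of C57BL/6 mice aged 52-54 days, and each library pooled 3 animals of the same group. Diestrus females, proestrus females and males were given 10 mg/kg cocaine intraperitoneally and taken after 1 h. Control mice of the same 3 kinds had no cocaine and were the baseline time point of the study. No vehicle injection is described for them, so cocaine cannot be told apart from the injection and the 1 h after it. There were 3 libraries in each group except male cocaine, which had 2, and the stage label of diestrus cocaine 2 was blank, so that its group came from its title. The third proestrus cocaine library is numbered 4. Diestrus is the low-estrogen stage of the cycle and proestrus the high-estrogen stage. A p-value below measures the spread between such pools, not between single animals.

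Adenosine and acetylcholine act with dopamine on the medium spiny neurons of the striatum, and cocaine raises dopamine there by blocking its reuptake. Adora2a, Gpr6 and Gpr52 raise cyclic AMP and are known mainly from the medium spiny neurons that carry the dopamine receptor Drd2, whereas Chrm4 lowers cyclic AMP and is best known from those that carry Drd1. Adora1, which lowers cyclic AMP, is widespread in neurons and sits largely on axon terminals, and Chrm1, which acts through phospholipase C, is found in both classes. Both classes were mixed in each library, so that fewer nuclei of a class and less open chromatin per nucleus cannot be told apart.

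Libraries held 75458 to 157005 peaks, and the pair of male cocaine libraries had the fewest (87707 and 75458), against 134653 to 150009 in the male controls. The background pileup, the number of reads that the authors' peak caller expected at a summit and a measure of relative depth, ranged from 6.26 to 9.55. Promoters of the neuronal markers Rbfox3, Snap25 and Syt1 and of the medium spiny neuron markers Drd1, Drd2 and Ppp1r1b were called in all 17 libraries, and that of Gad1 in 16. Promoters of microglial (Cx3cr1, Aif1, Tmem119) and endothelial (Cldn5, Pecam1, Flt1) markers were called in none, those of the oligodendrocyte markers Mog, Mag and Olig2 in 1, 1 and 2, and of the astrocyte markers, Aqp4 and Aldh1l1 in 0 and Gfap in 16. The markers of cortical excitatory neurons, Slc17a7, Neurod6 and Tbr1, had promoter peaks in all 3 male control libraries and in neither male cocaine library, and in 0 to 3 of 3 libraries in the female groups.

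The 5′ end of each of the 6 genes lay in a region that was called in all 17 libraries. Coordinates are those of mm10. The 5′ region of Adora1 (gene on the minus strand, chr1:134199223-134235431) was chr1:134232126-134237067, and that of Adora2a (plus strand, chr10:75316877-75334784) was chr10:75315143-75320652. For Chrm1 (plus strand, chr19:8663789-8683587) it was chr19:8661200-8667560, and its highest summit lay in the first intron. For Chrm4 (plus strand, chr2:91927249-91928688, as GENCODE gives it) it was chr2:91917992-91940302, a chain of peaks of 22311 bp that also covered Mdk and the ends of Ambra1 and Dgkz. The strongest summit of that chain lay 177 bp before the start that RefSeq gives for Chrm4, which is 5060 bp upstream of the GENCODE start. For Gpr6 (minus strand, chr10:41069977-41072285) it was chr10:41068891-41074317, and for Gpr52 (minus strand, chr1:160574717-160579704, inside an intron of Rabgap1l) chr1:160576646-160581008.

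Promoter sequences are shown for the 4 genes in which a searched motif was found in the 200 bases before the 5′ end, written 5′ to 3′ on the strand of the gene. Capitals mark a GC box (GGGCGG or CCGCCC) or, in Gpr6, a cyclic AMP response element (TGACGTCA), both searched on both strands. For Adora1 the stretch was moved 26 bases upstream and for Gpr6 5 bases, past annotated exons of other transcripts before that end. They span chr1:134235458-134235657 for Adora1 and chr10:75316677-75316876 for Adora2a. For Chrm4 the bases before the RefSeq start, chr2:91921989-91922188, are given, and for Gpr6 chr10:41072291-41072490.
Adora1: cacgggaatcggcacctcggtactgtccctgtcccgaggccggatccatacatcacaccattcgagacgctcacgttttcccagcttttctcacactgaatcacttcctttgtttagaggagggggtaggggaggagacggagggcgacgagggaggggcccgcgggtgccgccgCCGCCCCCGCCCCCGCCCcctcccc
Adora2a: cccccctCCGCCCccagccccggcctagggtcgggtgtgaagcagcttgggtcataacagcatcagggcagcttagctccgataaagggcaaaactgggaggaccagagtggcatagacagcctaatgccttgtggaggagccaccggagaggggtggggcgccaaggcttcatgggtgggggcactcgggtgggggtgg
Chrm4: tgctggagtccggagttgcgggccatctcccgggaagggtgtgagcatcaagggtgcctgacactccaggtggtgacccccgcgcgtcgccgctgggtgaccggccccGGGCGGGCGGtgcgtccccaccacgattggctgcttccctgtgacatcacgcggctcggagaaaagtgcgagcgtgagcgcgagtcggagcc
Gpr6: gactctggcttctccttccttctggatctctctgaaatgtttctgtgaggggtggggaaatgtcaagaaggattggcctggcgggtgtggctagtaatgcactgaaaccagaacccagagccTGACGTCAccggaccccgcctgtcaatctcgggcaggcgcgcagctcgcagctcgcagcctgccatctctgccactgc

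A GC box was thus present before 3 of the 6 genes, against 37.8% of 21756 genes, and the response element before 1 of 6, against 1.87%. That element, the site bound by the cyclic AMP-responsive factor CREB, lay 76 bp before the GENCODE start of Gpr6 at chr10:41072361-41072368, within the region that was called in every library. The AP-1 motif (TGACTCA or TGAGTCA), bound by Fos and Jun proteins, was found before none of the 6 genes, against 3.17% of all genes. These shares of all genes were read before the annotated starts without a move past exons. The stretches of Adora1 and Gpr6 were moved and that of Chrm4 lay before its RefSeq start, so members and background were not read alike. Within 100 bp of the strongest summit of the 60 kept regions, AP-1 was found in 4, 6.67% against 10.1% of all kept regions, and the GC box in 3, 5.0% against 9.06%. A match of these letters is a description of the window and not a measured binding site.

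The sequences of 3 regions outside the 5′ ends are shown because their heights differed between groups, each as the 201 bases around the strongest summit on the plus strand with the central 21 bases in capitals. They are the region past the 3′ end of Chrm1 (chr19:8691976-8692176), the region past the 3′ end of Gpr6 (chr10:41063570-41063770) and the region in an intron of Dgkz near Chrm4 (chr2:91950519-91950719).
Chrm1 region past the 3′ end: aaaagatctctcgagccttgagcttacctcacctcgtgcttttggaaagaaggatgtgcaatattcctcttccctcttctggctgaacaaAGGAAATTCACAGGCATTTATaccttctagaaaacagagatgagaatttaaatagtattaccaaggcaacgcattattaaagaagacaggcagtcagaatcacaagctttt
Gpr6 region past the 3′ end: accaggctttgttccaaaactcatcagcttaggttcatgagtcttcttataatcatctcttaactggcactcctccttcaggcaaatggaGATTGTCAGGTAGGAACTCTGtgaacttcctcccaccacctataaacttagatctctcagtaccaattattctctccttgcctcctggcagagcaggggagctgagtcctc
Dgkz intron region near Chrm4: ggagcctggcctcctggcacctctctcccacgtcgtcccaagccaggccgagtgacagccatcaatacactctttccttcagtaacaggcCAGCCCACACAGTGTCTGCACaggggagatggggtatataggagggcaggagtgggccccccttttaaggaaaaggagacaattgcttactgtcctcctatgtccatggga

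The kept regions were unevenly spread among the genes. Adora1 had 17 of 26 merged regions kept and 5 called in all libraries, and Gpr52 14 of 26 with 2 called in all. Adora2a had 9 of 12 kept and 3 in all, Chrm1 7 of 15 and 3, Chrm4 6 of 7 and 3, and Gpr6 7 of 12 and 4. The strongest summit was exonic in 12, intronic in 31 and intergenic in 17 of the 60. The regions were wide, with a median of 1210 bp against 714 bp for all kept regions, and 12 of the 60 exceeded 4000 bp, against 4.40% of all kept regions.

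Fold enrichment is the ratio of reads at a summit to the background pileup of its library. Calls depend on it, so a difference between regions called everywhere and the others follows from how they were sorted. Medians are over the libraries that called a region. In the 20 regions called everywhere the median over libraries was 3.74 to 11.3, and in the 40 others 2.43 to 3.50, close to the level at which peaks were no longer called. The 5′ regions had medians of 7.90 (Adora1), 4.28 (Adora2a), 10.1 (Chrm1), 10.2 (Chrm4), 9.62 (Gpr6) and 5.25 (Gpr52). Adora2a and Gpr52 thus had the lowest of the 6. Away from the 5′ ends, the highest median of each gene was 7.54 at 6.21 kb upstream of Adora1, 7.70 at 24.1 kb past the start of Adora2a, 11.3 at 28.4 kb past that of Chrm1, 7.92 at 17.3 kb past that of Chrm4, 11.2 at 8.45 kb past that of Gpr6 and 5.10 at 14.9 kb upstream of Gpr52. At Adora2a, Chrm1 and Gpr6 the distant region was therefore higher than the 5′ region in the median library.

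The number of the 60 regions that were called differed between libraries. It was 43, 45 and 45 in diestrus controls and 47, 34 and 36 in diestrus cocaine libraries. Proestrus controls had 44, 46 and 43 and proestrus cocaine libraries 36, 37 and 39, and the groups did not overlap. Of all kept regions, 51.6%, 51.7% and 56.2% were called in the proestrus controls and 59.4%, 53.5% and 57.7% after cocaine, shares that overlapped and lay higher after cocaine in the mean. Male controls had 39, 33 and 41 and male cocaine libraries 28 and 21, the fewest of all. The male cocaine libraries were also the lowest in their total number of peaks.

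**Figure D1:**
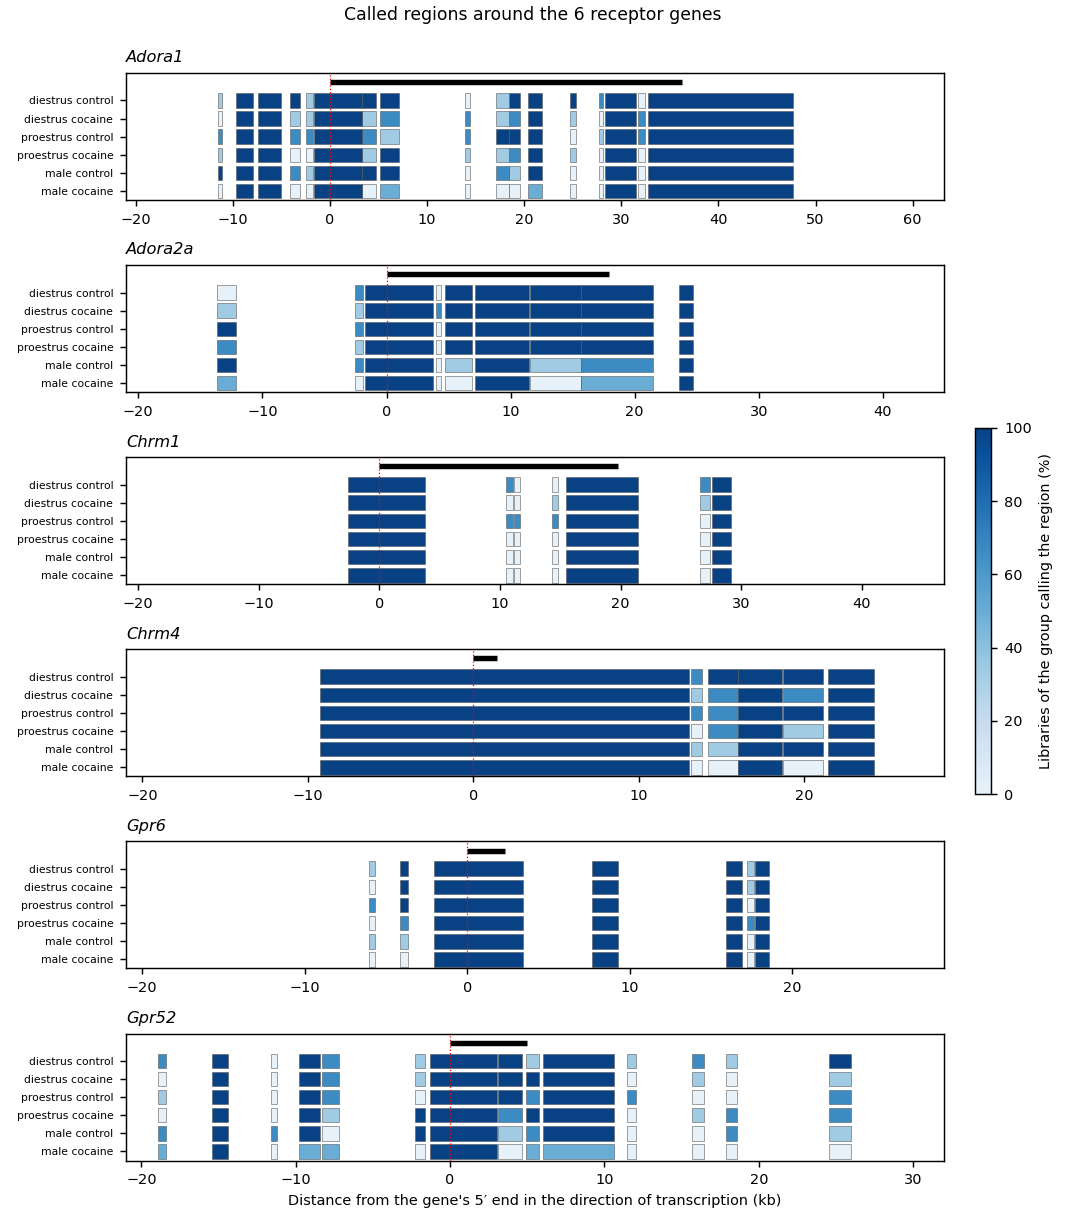
Kept regions around each receptor gene (x axis: distance from the 5′ end along the gene, in kb; 1 line per group), shaded by the share of the group's libraries that called them. The regions at the 5′ ends are dark in all 6 groups, and the palest rows are those of male cocaine.

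Some Adora2a regions were called in few male libraries. Of the 60 regions, 6 were called in all 12 female libraries and in fewer than all 5 male libraries, 10.0% against 3.50% of all kept regions, and 0 the other way round, against 4.58%. The male cocaine libraries called 42.0% and 36.6% of all kept regions, the fewest of the 17, and the part of this in the 6 was not tested. The region 5.81 kb past the Adora2a start (chr10:75321578-75323791) and the one 13.6 kb past it (chr10:75328461-75332541) were called in 1 of 3 male controls and in 0 of 2 male cocaine libraries. Another Adora2a region, 18.6 kb past the start, was called in 3 of 5 male libraries. The others, 1 in Adora1 and 2 in Gpr52, were missing from 1 male library each.

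Peak height was compared as the log2 of the highest fold enrichment in a region, quantile-normalized over libraries, in the 36847 regions called in all 17 libraries, with limma and Benjamini-Hochberg adjustment over all of them. A difference of 1 on this scale is a doubling of the normalized fold enrichment. The 20 members that could be tested this way comprised the 6 regions at 5′ ends and 14 others, and the 40 others were compared by their calls alone. Of the 13 results for members that passed by height in the comparisons below, 1 also passed with the mean fold enrichment over the peaks of a region in place of the highest, the Gpr6 region 16.4 kb past the start between male and female controls.

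The order of the 6 groups was read at each 5′ region. For Adora2a the normalized log2 height was lowest in diestrus controls (1.76 ± 0.11, SD, n = 3) and highest in proestrus controls (2.49 ± 0.07), with male control, male cocaine, proestrus cocaine and diestrus cocaine in between. For Gpr6, Gpr52 and Chrm4 diestrus controls were lowest too, and for Chrm1 and Adora1 male controls were. Proestrus controls were highest for 5 genes, and proestrus cocaine was for Gpr6. Most neighbors in these orders overlapped in their libraries' values. The exceptions were the first step for Adora1 and Adora2a, the step from male control to male cocaine for Gpr6, and that from proestrus cocaine to diestrus cocaine for Adora2a.

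**Figure D2:**
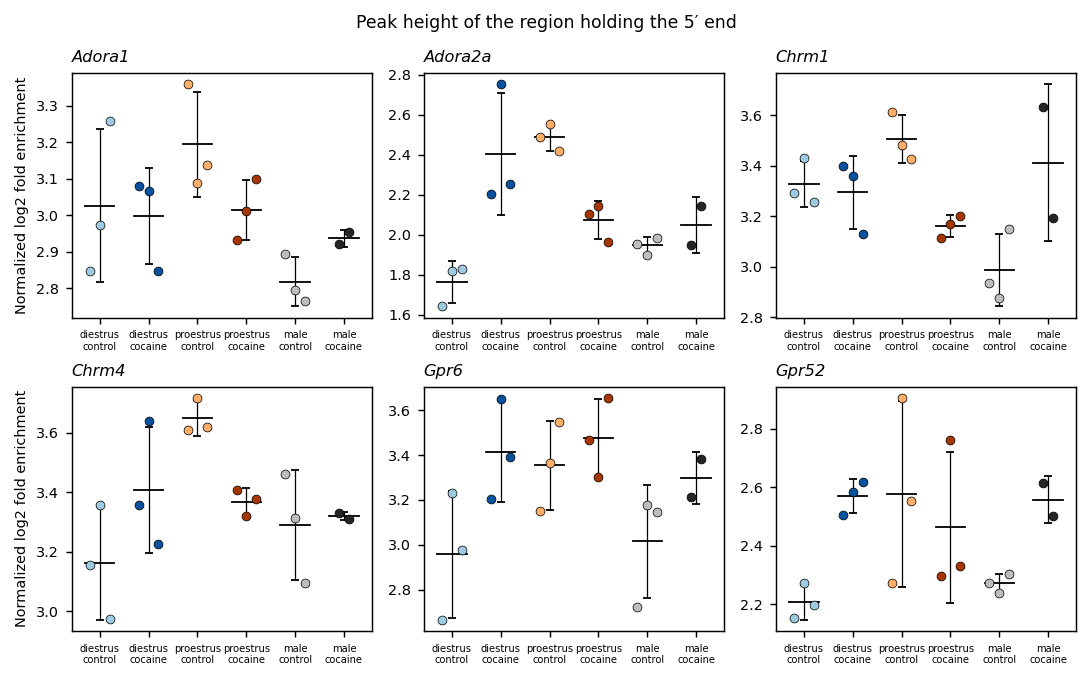
Quantile-normalized log2 fold enrichment (y axis) of the region holding the 5′ end of each gene in the 6 groups (x axis), with 1 point per library and a bar at the group mean. For Adora2a the 3 diestrus control libraries lie below all other libraries.

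Cocaine in diestrus was followed by a higher peak at the 5′ end of Adora2a and a lower one past the 3′ end of Chrm1. At the 5′ region of Adora2a, fold enrichment was 3.23, 3.57 and 3.63 in the diestrus controls and 5.58, 7.67 and 4.02 after cocaine, and the groups did not overlap. The normalized log2 difference was 0.64 ± 0.16 (SE), or 1.56-fold (limma, adjusted p = 0.0116). Without diestrus cocaine 2, the library whose stage label was blank, it was 0.47 with an adjusted p of 0.119 by limma, and with the mean over the peaks of the region it was 0.28 (adjusted p = 0.261, limma).

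In the region 28.4 kb past the Chrm1 start (chr19:8691365-8692915), fold enrichment was 12.8, 16.3 and 19.4 in the diestrus controls and 16.5, 12.7 and 7.24 after cocaine. The groups overlapped before normalization, and the normalized log2 difference was -0.53 ± 0.16 (SE; limma, adjusted p = 0.0250). The call was lost without diestrus control 2 (-0.57, limma adjusted p = 0.0517) or diestrus cocaine 2 (-0.53, 0.0955), where the difference was as large, and without diestrus control 3 (-0.39, 0.173) or diestrus cocaine 3 (-0.38, 0.214), where it was smaller. Those 2 regions were the calls among the 20 members, against 13% of all regions tested in this comparison. The other members ranged within these limits around a median of -0.04. Without diestrus cocaine 1, 5 members passed, without diestrus cocaine 2 0 did, and without diestrus control 3 or diestrus cocaine 3 there was 1.

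At the other 5′ regions in diestrus, Gpr6 stood at 6.33, 10.3 and 8.30 in controls and 11.5, 14.8 and 8.61 after cocaine, a log2 difference of 0.46 ± 0.16 that missed the threshold (limma, adjusted p = 0.0567). It passed without diestrus cocaine 1 (0.57, limma adjusted p = 0.0121), without diestrus control 2 (0.59, 0.0445), without proestrus cocaine 2 (0.46, 0.0429) and without male control 1 (0.46, 0.0494). Gpr52 differed by 0.36 and Chrm4 by 0.24, with limma adjusted p of 0.145 and 0.241. Adora1 and Chrm1 differed by -0.03 each.

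In diestrus 0 members were called in all cocaine libraries and missing from all controls, and 0 the other way round, where 1.16% of all kept regions were gained and 1.26% lost in this sense. Leaving out diestrus cocaine 1 gave 4 such members, and leaving out any other diestrus library 1 or 2. In windows of 250 bp on either side of summits, 3 of 145 were gained, all in Adora2a, and 1 was lost near Chrm4, against 1.21% and 1.25% of all windows. The length covered by peaks in the gene body and 20 kb on either side, the measure that also counts regions missing from some libraries, was compared next. For Adora2a it was 3.16, 9.19 and 6.98 kb in the diestrus controls and 16.7, 16.7 and 8.03 kb after cocaine. Diestrus cocaine 1 and 2 were above all controls, and diestrus cocaine 3 lay within their range. The normalized log2 difference of 1.27 ± 0.32 did not pass over 21756 genes (limma, adjusted p = 0.0737), nor did that of Gpr6 (0.55 ± 0.16, limma adjusted p = 0.0949), so that 0 of the 6 genes were called, 2 at an unadjusted p below 0.05, against 0.763% of all genes. Without diestrus cocaine 1 both passed, Adora2a at 1.36 (limma adjusted p = 0.0193) and Gpr6 at 0.72 (0.00483).

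In proestrus, no member height passed after cocaine, where 5.01% of all regions did (limma), and 3 of the 20 had an unadjusted p below 0.05. At the 5′ region of Adora2a the values were 4.86, 5.34 and 4.93 in controls and 4.41, 4.28 and 3.77 after cocaine, every cocaine library below every control. The normalized log2 difference was -0.41 ± 0.16 (limma, adjusted p = 0.120). The 5′ region of Chrm1 gave 10.3, 10.3 and 10.2 in controls and 8.51, 8.66 and 8.38 after cocaine, with a difference of -0.34 ± 0.14 (limma, adjusted p = 0.134). The median of the 20 members was -0.17. Without male cocaine 2, which adds regions to those called in every library, 1 member passed, 21.1 kb past the Adora1 start.

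A single region separated cocaine from control in proestrus. It lay 1.96 kb upstream of Gpr52 (chr1:160581356-160581978), in the intron of Rabgap1l, and was called in all 3 cocaine libraries and in 0 of 3 controls. In diestrus it was called in 1 of 3 libraries of either group, and in males in all 3 controls and in 0 of 2 cocaine libraries. Where it was called its fold enrichment was only 2.25 to 3.19, near the lowest values of the peak lists. With peaks of −log10 q of 5 or more, or an equal number per library, it separated cocaine from control in neither proestrus nor males. The region gained in proestrus was then another one, 5.34 kb past the Gpr52 start. Among all kept regions 2.45% were gained and 1.64% lost in proestrus, against 1 gained and 0 lost of 60 here. Without proestrus control 1 there were 8 such members, without proestrus cocaine 2 there were 4, and without proestrus control 3 or diestrus cocaine 1 there were 3, and without proestrus control 2 or proestrus cocaine 1 there were 2. In the windows around summits 1 of 145 was gained and 7 were lost, 4 of these around Chrm1, against 1.97% and 2.65% of all windows. The covered length of Chrm1 was 11.9, 12.8 and 12.5 kb in controls and 7.67, 7.37 and 7.46 kb after cocaine, groups that did not overlap. Its normalized difference was -0.30 ± 0.13 (limma, adjusted p = 0.136), the one unadjusted p below 0.05 among the 6 genes, of which 0 were called against 11.9% of all genes. Slc17a7 promoters were called in 3 of 3 proestrus controls and 0 of 3 cocaine libraries, Neurod6 in 0 and 2 and Tbr1 in 3 and 3, and their part was not tested. Without diestrus cocaine 1 the covered length of Chrm1 passed at -0.30 (limma adjusted p = 0.0431).

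Control females of the 2 stages differed at Adora2a. Its 5′ region was lower in diestrus than in proestrus controls, by -0.72 ± 0.16 on the log2 scale (limma, adjusted p = 0.0318), and the fold enrichments given above did not overlap. It was the single call among the 20 members, against 0.692% of all regions. Of the cortical marker promoters, Tbr1 was called in 0 of 3 diestrus and 3 of 3 proestrus controls, Slc17a7 in 2 and 3 and Neurod6 in 0 and 0, and their part in the difference was not tested. Leaving out any 1 of the 6 control libraries of this comparison took the adjusted p to between 0.0654 and 0.130 (limma), with differences of -0.66 to -0.76. Chrm4 differed in the same direction by -0.49 (limma, adjusted p = 0.0916, and 0.0481 without diestrus cocaine 1), Gpr6 by -0.40 (0.235) and Gpr52 by -0.37 (0.287). The region past the 3′ end of Chrm1 stood at 8.66, 10.7 and 8.44 in proestrus controls, below all 3 diestrus controls, and its difference of 0.62 ± 0.16 missed the threshold (limma, adjusted p = 0.0536). The covered length of Adora2a was 9.79, 10.7 and 12.6 kb in proestrus controls, all above the diestrus controls, with a normalized difference of -0.70 ± 0.32 (limma, adjusted p = 0.449). No gene of the 6 was called, and 1 had an unadjusted p below 0.05, against 1.12% of all genes.

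Whether the cocaine effect differed between the stages was tested directly. At the 5′ region of Adora2a it was 1.05 ± 0.23 higher in diestrus than in proestrus on the log2 scale (limma, adjusted p = 0.230), a difference that draws on the same diestrus and proestrus controls as the comparisons above. The adjusted p was 0.0213 without diestrus cocaine 1, with a difference of 1.15. No member passed and 4 of the 20 had an unadjusted p below 0.05, where 0.00543% of all regions passed. For the covered length of Adora2a the difference was 1.61 ± 0.45 (limma, adjusted p = 0.218). Chrm1 was the other gene with an unadjusted p below 0.05 there (0.40 ± 0.18, limma adjusted p = 0.557), and 0 of 6 were called against 0.313% of all genes.

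**Figure D3:**
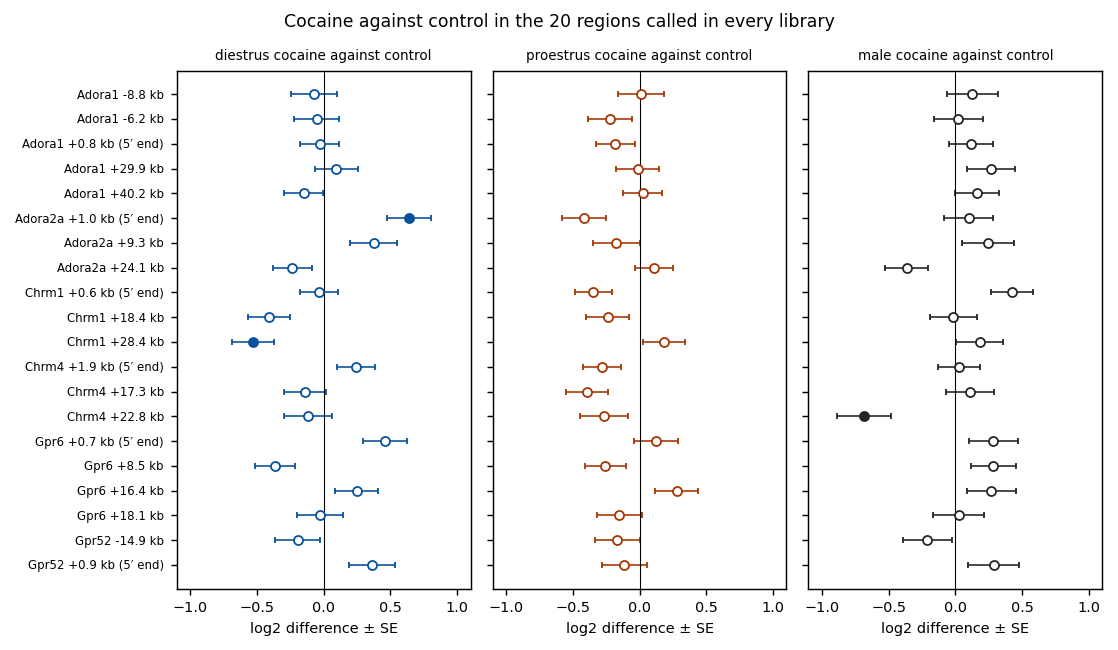
Normalized log2 differences of cocaine against control, with standard errors (x axis), for the 20 member regions called in every library (y axis, named by gene and distance from the 5′ end), in diestrus, proestrus and males. The 5′ region of Adora2a lies at 0.64 in diestrus and at -0.41 in proestrus.

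In males, 4 of the 60 member regions (6.67%) were lost after cocaine when all peaks were used. They were called in all 3 controls and in neither cocaine library. Of all kept regions 16.8% were lost in this way, a larger share, and 0 members were gained against 1.66%. The regions lost were 4.01 kb past the start of Adora1 (chr1:134230727-134232115), 11.3 kb upstream of Adora1 (chr1:134246530-134246978), 19.9 kb past the start of Chrm4 in an intron of Dgkz (chr2:91945962-91948388), and the region upstream of Gpr52 already described. The cocaine libraries held 87707 and 75458 peaks against at least 134653 in the controls, and the promoters of Slc17a7, Neurod6 and Tbr1, called in all male controls, were called in neither cocaine library. The part of either in these losses was not tested. Without male control 1 there were 6 such regions, without male control 2 there were 7, and without male cocaine 1 there were 8. With an equal number of peaks per library, 0 of 40 kept members were lost, against 9.35% of all kept regions, and 1 was gained, the Gpr6 region 16.4 kb past the start, against 4.08%. With windows of 250 bp on either side of summits in place of merged regions, 13 of 145 kept windows were lost in males, 9 of them around Chrm4 and 4 around Adora1, against 15.8% of all such windows.

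In peak height the one call among the 20 members lay in a region 22.8 kb past the Chrm4 start, in an intron of Dgkz (chr2:91948683-91951443), against 8.6% of all regions. Its fold enrichment was 9.56, 7.02 and 8.12 in male controls and 4.04 and 3.37 after cocaine, and the normalized log2 difference was -0.68 ± 0.20 (limma, adjusted p = 0.0293). The call was lost without male control 1 (-0.60, limma adjusted p = 0.0889), male control 3 (-0.67, 0.0819), male cocaine 1 (-0.81, 0.0928) or male cocaine 2 (-0.55, 0.280), and without proestrus control 3 the peaks merged otherwise and the region was not among those tested. In female libraries the same region stood between 4.02 and 6.89. The male controls were thus the high group. None of the 5′ regions passed in males. The nearest was Chrm1, at 9.43, 8.4 and 10.2 in controls and 11.4 and 7.67 after cocaine (0.43 ± 0.16, limma adjusted p = 0.0859), and Adora2a stood at 4.59, 4.13 and 4.50 and at 3.39 and 3.72 (0.10 ± 0.18, adjusted p = 0.773). For Chrm1 the raw values after cocaine lay on either side of the controls. For Adora2a both lay below all 3 controls, so the sign of its difference changed with normalization.

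The covered length after cocaine in males fell for Chrm4 beyond the loss shared by all genes. It was 22.3, 17 and 22.0 kb in controls and 8.18 and 6.83 kb after cocaine, with a normalized log2 difference of -0.52 ± 0.10 (limma, adjusted p = 0.00508). With 5 kb on either side of the gene body in place of 20 kb it was -0.24 (limma, adjusted p = 0.381), and with a correction for GC content -0.60 (limma, adjusted p = 0.0809). Chrm1 passed in the other direction, at 0.48 ± 0.15 (limma, adjusted p = 0.0436), although its covered length was lower after cocaine (8.90, 6.69 and 8.64 kb against 6.05 and 5.87 kb). Over all genes the median length per library was 2.88 to 3.59 kb in male controls and 1.80 to 2.13 kb after cocaine. That call was lost on leaving out any library other than diestrus cocaine 1, diestrus cocaine 3 and proestrus cocaine 2, with limma adjusted p from 0.0501 to 0.295, and with an equal number of peaks per library (0.22, 0.377), median scaling (0.23, 0.424), cyclic loess (0.37, 0.0813) or 5 kb on either side (0.40, 0.119). Adora1 covered 22.7, 14.1 and 20.7 kb in controls and 9.56 and 6.97 kb after cocaine (-0.29 ± 0.11, limma adjusted p = 0.104). Thus 2 of the 6 genes were called against 15.9% of all genes, in libraries that also differed in peak number and in the cortical marker promoters given above, whose part was not tested.

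**Figure D4:**
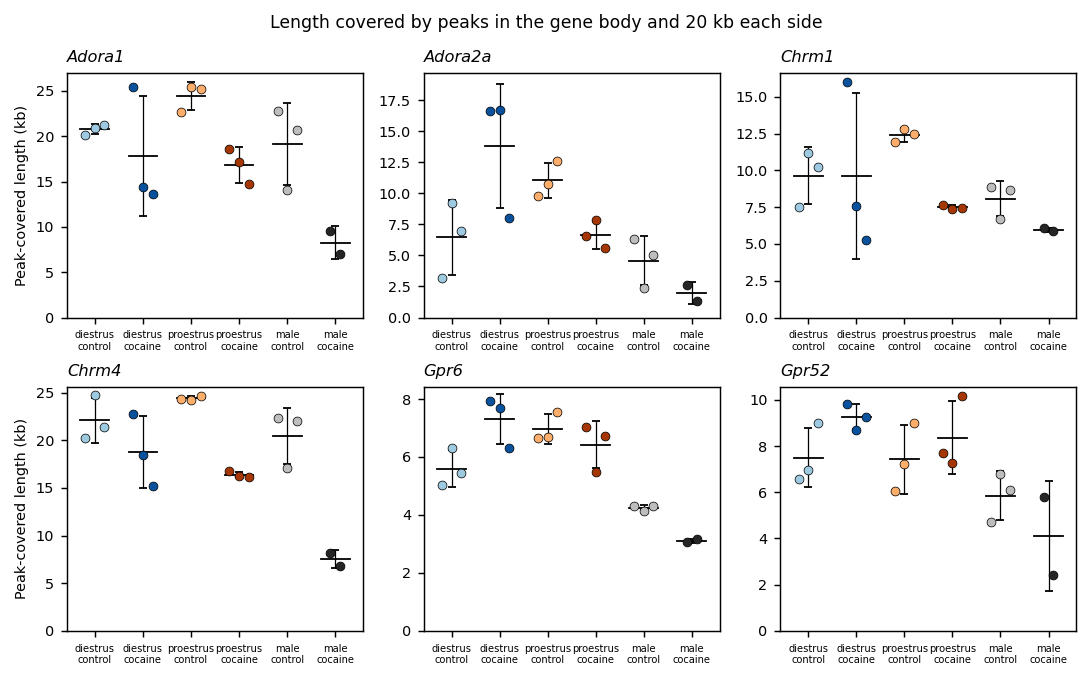
Length covered by peaks (y axis, kb, before normalization) in the gene body and 20 kb on either side of each receptor gene, by group (x axis), with 1 point per library and a bar at the group mean. The male cocaine libraries are lowest for Chrm4, at 8.18 and 6.83 kb, and diestrus cocaine 1 and 2 are highest for Adora2a, at 16.7 kb each.

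Between male and female controls 7 of the 20 heights passed, more than in the other 6 comparisons of height. It was also the comparison of height with the most calls over all regions. Of the 20 heights 6 were lower and 1 was higher in males, against 12.6% lower and 13.1% higher of all regions (limma). Lower in males were the 5′ region of Chrm1 (-0.43 ± 0.12, adjusted p = 0.00987), the region 28.4 kb past its start (-0.43 ± 0.14, 0.0198), the Gpr6 regions 8.45 kb (-0.42 ± 0.13, 0.0165) and 16.4 kb (-0.49 ± 0.14, 0.0108) past the start, the region 24.1 kb past the start of Adora2a (-0.41 ± 0.12, 0.0145) and the one 6.21 kb upstream of Adora1 (-0.47 ± 0.14, 0.0159), each adjusted p from limma. The region in the Dgkz intron near Chrm4 was higher in males (0.44 ± 0.16, limma adjusted p = 0.0375). At Gpr6, the region 16.4 kb past the start gave 2.68, 3.03 and 3.18 in male controls and 3.38 to 4.29 in the 6 female controls, groups that did not overlap.

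Each of these 7 sex differences lost the threshold without at least 1 single library. In those runs the differences kept their direction and lay between 0.29 and 0.45 in size. With the mean fold enrichment, all but the Gpr6 region 16.4 kb past the start missed the threshold. The difference upstream of Adora1 was then -0.04 (limma adjusted p = 0.931). For the 5′ region of Chrm1 the limma adjusted p was 0.0723 without male control 2. For the region past the 3′ end of Chrm1 it was 0.0642 without diestrus control 3, 0.0524 without proestrus control 2 and 0.165 without male control 1. For the nearer Gpr6 region it was 0.0540 without proestrus control 1, 0.0535 without male control 1 and 0.162 without male control 2, and for the farther one 0.0705 without male control 1. For Adora2a it was 0.0838 without male control 1 and 0.0656 without male control 2, and for Adora1 0.0653 without male control 2 and 0.213 without male control 3, where the difference was -0.29. For the region near Chrm4 it was 0.102, 0.0674, 0.0620, 0.158 and 0.112 without diestrus control 2, diestrus control 3, proestrus control 2, male control 1 and male control 3.

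By covered length Gpr6 and Adora2a were lower in male controls, 2 of 6 genes against 28.4% of all genes. Gpr6 covered 4.30, 4.15 and 4.29 kb in male controls and 5.05 to 7.56 kb in female controls, without overlap (-0.49 ± 0.14, limma adjusted p = 0.0206, and 0.0673 and 0.0771 without male control 1 and 3). Adora2a covered 6.31, 2.41 and 5.02 kb in male controls and 3.16 to 12.6 kb in female controls (-0.79 ± 0.27, limma adjusted p = 0.0482). The Adora2a call was lost on leaving out any proestrus library, diestrus control 2 or 3, or male control 2 or 3, with limma adjusted p from 0.0550 to 0.270. It was also lost with peaks of −log10 q of 5 or more (-0.42, limma adjusted p = 0.408), with an equal number of peaks per library (-0.33, 0.493) and with a correction for GC content (-0.52, 0.154). Slc17a7, Neurod6 and Tbr1 promoters were called in 3, 3 and 3 of the 3 male controls and in 5, 0 and 3 of the 6 female controls, and the part of these nuclei in the sex differences was not tested.

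The cocaine effect itself was compared between males and females, the latter as the mean of both stages, using the same controls. The effect was more positive in males at the 5′ region of Chrm1 (0.61 ± 0.19, limma adjusted p = 0.0212) and at the Gpr6 region 8.45 kb past the start (0.59 ± 0.20, adjusted p = 0.0335). At the latter, fold enrichment was 11.2, 9.09 and 12.8 in male controls and 11.6 and 8.72 after cocaine, against 9.17 to 14.5 in female controls and 8.23 to 13.9 after cocaine. The raw ranges overlapped throughout, and these 2 calls of 20 compare with 19.7% of all regions. The Chrm1 value was 0.56 without male control 2 (limma adjusted p = 0.0695) and 0.39 without male cocaine 1 (0.247), and 0.41 with a correction for GC content (0.125). The Gpr6 call was lost without diestrus control 3 (0.0515), proestrus control 1 (0.0602), male control 1 (0.0527), male control 2 (0.129), male cocaine 1 (0.229) or male cocaine 2 (0.0564).

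For covered length the effect was more negative in males for Chrm4 (-0.45 ± 0.12, limma adjusted p = 0.0202) and more positive for Chrm1 (0.58 ± 0.17, adjusted p = 0.0311), 2 of 6 genes against 22.9% of all genes. Scaling each library by its median in place of quantiles shifted the median of all genes by 0.19 in this comparison and by -0.16 between male and female controls. For Chrm4 the limma adjusted p was 0.0602 without male cocaine 1, 0.0857 without male cocaine 2 and 0.198 with 5 kb on either side, where the difference was -0.36. For Chrm1 it was 0.0516, 0.0505, 0.0518, 0.0668, 0.0557 and 0.162 without diestrus control 2, proestrus control 2, male control 1, male control 2, male control 3 and male cocaine 2, and 0.0557 with median scaling, 0.0563 with cyclic loess and 0.184 with an equal number of peaks per library (0.32).

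Over all libraries, 8 with cocaine and 9 without, call frequency was compared by Fisher's exact test, two-sided, for regions called in 4 to 13 libraries. Of the 29 members that could be tested 0 passed the adjustment over 64304 regions, as did 0.0% of all, and 4 had an exact p below 0.05 before it, against 13% of all regions. The lowest was the Dgkz intron region 19.9 kb past the Chrm4 start, with peaks in 3 of 8 libraries with cocaine and in 9 of 9 without (exact p = 0.00905, adjusted p = 0.273). The other 3 lay around Adora1. The region 4.01 kb past its start was called in 2 of 8 against 8 of 9 (exact p = 0.0152), the one 3.58 kb upstream in 1 of 8 against 7 of 9 (exact p = 0.0152) and the one 11.3 kb upstream in 1 of 8 against 6 of 9 (exact p = 0.0498). All 4 were called less often after cocaine, as were 5933 of the 8385 regions with an exact p below 0.05 in the genome. With an equal number of peaks per library the split over all regions turned to 3269 more often and 2043 less often called. There 1 member had an exact p below 0.05, lower than any with all peaks (exact p = 0.000411, adjusted p = 0.0988).

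Genes whose 5′ regions varied most like those of the receptors were found by Pearson correlation of normalized height over the 17 libraries among 11228 protein-coding genes, as a description, since libraries share groups and depth. They were Tmod1 (0.835) and Ccnjl (0.806) for Adora2a, Cplx2 (0.835) and Mchr1 (0.834) for Adora1, and Pop5 (0.883) and 1700028J19Rik (0.854) for Chrm1. For Chrm4 they were Ikzf4 (0.864) and Gpr176 (0.806), for Gpr6 Htr2c (0.877) and Kcna3 (0.864), and for Gpr52 Lrrc8d (0.930) and Lrch3 (0.912). Among the 6 receptors themselves the closest pair was Adora2a and Chrm4 (0.770), and the least alike were Adora1 and Gpr52 (0.0850).

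A list of 20 genes of the same pathways showed where the receptors stood among their partners. It held the other adenosine and muscarinic receptors, the orphan receptors Gpr3, Gpr12 and Gpr21, the enzymes and transporters of adenosine and acetylcholine, and the signaling genes Adcy5, Rgs4 and Rgs9. Promoters of Adora3, Ada, which deaminates adenosine, and the cholinergic genes Chat, Slc18a3 and Slc5a7 had no peak within 1 kb of the 5′ end in any library. In diestrus, 2 of the 12 genes with a height in all libraries changed after cocaine: Rgs4, which shortens G protein signals, rose by 0.51 (limma adjusted p = 0.00934), and Ache, which breaks down acetylcholine, fell by 0.45 (0.0155). That compares with 13% of all regions in diestrus. In proestrus and in males 0 of 12 heights passed (limma), against 5.01% and 8.6% of all regions. By covered length 0 of 20 passed in diestrus, against 0.763% of all genes. In proestrus Nt5e, which forms adenosine, rose by 0.94 and Chrm3 by 0.88, while Rgs9 fell by 0.61 (limma adjusted p = 0.0107, 0.0142 and 0.00149). Of all genes 11.9% passed there.

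In males 3 of the 20 rose after cocaine and 4 fell in covered length, where 15.9% of all genes passed in either direction. The largest were Adora3 (-1.18), Chrm3 (-1.11), Chrm5 (-0.93), Gpr21 (-0.71) and Slc29a2 (0.53), with limma adjusted p from 0.00164 to 0.0249. Adora3 had no peak within 1 kb of its 5′ end and Chrm5 no region over it, so peaks elsewhere in their windows made up this length. The male cocaine libraries had the fewest peaks, and the part of this was not tested. Libraries were not left out in turn for the pathway genes. Between male and female controls 5 were higher and 7 lower in males, where 28.4% of all genes passed in either direction. The largest were Chrm3 (1.83), Chrm2 (1.16), Adora3 (0.76), Nt5e (0.71) and Chrm5 (0.68). Chrm1 and Chrm4, the members among the muscarinic genes, had differences of -0.22 and 0.11 in that comparison (limma adjusted p = 0.161 and 0.349). Between diestrus and proestrus controls Rgs9, a striatal partner of the G proteins, was lower in diestrus by -0.53 (limma adjusted p = 0.00465), and its cocaine effect was 0.74 higher in diestrus than in proestrus (adjusted p = 0.0144). Of all genes 1.12% and 0.313% passed in these comparisons.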

How the data were processed

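ATAC-seq of NeuN+ nuclei was available as 17 peak lists, 1 per library. The authors mapped reads by BWA-MEM (mm10) and took 1 MACS2 peak list from every library; versions are not given in the sources used here. Each deposited peak carries a score, a fold enrichment (a ratio of summit pileup to background) and −log10 p and q values, computed by the authors within a library and not scaled between libraries. A further deposited column, of another kind, gives the summit position. The authors tested read counts with DESeq2. No read counts were used here, so reads can lie where a library has no peak.

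Peaks on chromosomes 1 to 19 and X that overlapped by 1 bp or more were merged, and regions called in at least 2 libraries of 1 group were kept. Gene bodies came from GENCODE vM21, except Gpr52, which came from RefSeq on the same build, GRCm38. Height was the log2 of the highest fold enrichment in a region and covered length was log2(bp + 500); both were quantile-normalized and tested with limma 3.58.1 (R 4.3.3, mean-variance trend, all 6 groups in 1 fit, Benjamini-Hochberg adjustment over all features, threshold 0.05), so a fold change of covered length is on the log2(value + 500 bp) scale. Calls were compared by complete separation and by two-sided Fisher's exact test (scipy 1.17.1). Scripts were tested on simulated data. Sequences were read with pysam 0.24.0 and figures drawn with matplotlib 3.10.9.

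The text names, of each member, the 5′ region, regions that passed or separated groups, and the highest other region; of the pathway list, those that passed, at most 5 per comparison by size, and those without a peak at the 5′ end; and the 2 genes most alike in height. Members and lists were chosen with earlier results of these data known. Reads at the strongest summits of kept members numbered at least 18. After removal of group means, same-numbered libraries had correlations of both signs (-0.23 to 0.15 in height and -0.36 to 0.18 in covered length over 7 pairs). With groups of 2 or 3 libraries these values cannot decide whether such libraries varied together. No label names a shared batch, so numbers were not used to pair libraries. One gene of the pathway and marker lists is not reported here.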

Additional observations from a re-analysis of the deposited data

Results flagged for a closer look

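The cocaine effect differed between males and females, by a limma test of the difference itself, at the Gpr6 region 8.45 kb past the start (0.59 on the log2 scale, adjusted p = 0.0335) and the 5′ region of Chrm1 (0.61, adjusted p = 0.0212). In covered length it differed for Chrm4 (-0.45, limma adjusted p = 0.0202) and Chrm1 (0.58, limma adjusted p = 0.0311). These were 2 of 20 heights, against 19.7% of all regions, and 2 of 6 genes, against 22.9% of all genes. Each of these calls was lost without at least 1 single library.

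Of the 20 pathway genes, 4 passed as more positive and 5 as more negative in males by the same test of covered length. Over all genes 22.9% passed. The largest were Chrm3 (-1.71, limma adjusted p = 0.000712), Adora3 (-1.50, 0.00107), Chrm2 (-1.1, 0.0313), Nt5e (-1.04, 0.00929) and Chrm5 (-1.01, 0.0114). Adora3 had no peak within 1 kb of its 5′ end in any library. In height it gave 3 of 12 genes, against 19.7% of all regions. They were Slc29a2 (0.98, limma adjusted p = 0.00458), Gpr12 (0.82, 0.0169) and Ache (0.70, 0.00375). Between diestrus and proestrus the cocaine effect on covered length differed for Rgs9 (0.74, limma adjusted p = 0.0144), 1 of 20 genes against 0.313% of all genes.

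The region 1.96 kb upstream of Gpr52 moved in opposite directions in calls. It was gained in 3 of 3 proestrus cocaine libraries against 0 of 3 controls and lost in 2 of 2 male cocaine libraries against 3 of 3 controls called, and this difference was not tested. With peaks of −log10 q of 5 or more, or an equal number per library, it separated cocaine from control in neither proestrus nor males.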

How the results depend on the processing

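Missing peaks are not missing reads, the peak lists hold no counts, and each group has 2 or 3 pools, which limits the precision. In simulated diestrus data with the spread of these libraries, 200 of 36847 regions were changed and no others. There limma recovered 13% of the height differences of 0.5 and 95% of those of 1 on the log2 scale. In the data 13% of all regions passed in diestrus, so the adjusted threshold corresponded to a less strict unadjusted p. These shares therefore do not give the recovery in the data, which was not measured. Of 37 single results for members, followed through 1088 values under alternatives, 955 kept direction and side of the threshold, 114 lost the threshold, 19 gained it and 0 changed direction. Only 19 of the 37 results had passed, and all 114 losses fell on them. For the others, keeping the side meant missing the threshold again. For height, narrower gene windows and the use of every merged region reused the main fit, so those values were the same in advance. The numbers below are of member regions or genes that passed; the cause of a change was not tested, except that narrower gene windows hold fewer regions. Windows of 250 bp on either side of summits, in place of merged regions, were chosen after seeing the data.

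With these windows, 4, 8 and 13 members separated the groups in diestrus, proestrus and males, and 1 (diestrus), 0 (males), 0 (control stages) and 1 (cocaine effect between the sexes) passed in height. With peaks of −log10 q under 5 left out, 1 and 2 separated in diestrus and males, and 1 gene passed in covered length between male and female controls. With an equal number of peaks per library, 3 and 1 separated in diestrus and males (in males 0 lost and 1 gained, against 4 lost and 0 gained with all peaks), 1 and 0 passed in height in diestrus and between control stages, and 1 each in covered length in males, between the control sexes and for the effect between the sexes. With the gene body alone, 0 and 1 separated in proestrus and males, and 1, 0, 1 and 1 passed in height in diestrus, in males, between the control sexes and for the effect between the sexes. With 5 kb on each side, 2 separated in males, the same 4 heights gave 1, 0, 1 and 1, and covered length gave 1 in proestrus, 0 in males and 1 for the effect between the sexes. With a call needing 25% of the region, 8 separated in males, and 1, 0 and 0 passed in height in diestrus, males and between control stages. With the mean fold enrichment, height gave 0 in diestrus, 0 in males, 0 between control stages, 1 between the control sexes and 0 for the effect between the sexes. With regions called in at least 14 of 17 libraries, it gave 1 in proestrus, 2 between control stages and 1 for the effect between the sexes.

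Cyclic loess and the GC correction each gave 2 in height between control stages, 1 in covered length in diestrus and 1 in males, and 1 and 4 for the effect between the sexes. Without the mean-variance trend, 1 passed in height for the effect between the sexes and 1 in covered length between the control sexes. Median scaling gave covered lengths of 1 in diestrus, 3 in proestrus, 5 between the control sexes and 1 for the effect between the sexes. A mean of at least 500 bp gave 1 in diestrus, and a pseudocount of 100 bp gave 1 between the control sexes. With the replicate number as a block, 1 gene passed in covered length in males, 1 between the control sexes and 0 for the effect between the sexes, and the 5′ region of Gpr6 passed in height in diestrus, where 3 members did. With the block and the GC correction, covered length gave 0, 1 and 0 in these 3 comparisons, and height 2 between control stages. The block changed no other number of members by over 1.5 times.

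Leaving out 1 library at a time gave 0 to 4 separated members in diestrus, 1 to 8 in proestrus and 4 to 8 in males, and 0 in the exact test. Height gave 0 to 5 in diestrus, 0 to 1 in proestrus, 0 to 1 in males, 0 to 3 between control stages, 2 to 7 between the control sexes, 0 to 2 for the effect between the sexes and 0 to 1 for that between stages. Covered length gave 0 to 2 in diestrus, 0 to 1 in proestrus, 1 to 2 in males, 0 between control stages, 0 to 2 between the control sexes, 0 to 2 for the effect between the sexes and 0 for that between stages.

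Scaling moved the share of higher calls over all features. With median scaling in place of quantiles it went from 41.2% to 58.2% for height in males and from 49.8% to 64.5% for the effect between the sexes. For covered length it went from 58.4% to 47.0% in diestrus, from 50.3% to 29.7% in proestrus, from 50% to 63.6% in males (68.3% with cyclic loess), from 79.4% to 68.6% between control stages, from 47.3% to 32.8% between the control sexes, from 51.9% to 68.0% (63.5%) for the effect between the sexes and from 23.5% to 10.3% (12.7%) for that between stages.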

Other observations

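Adora1 had the most regions that varied between libraries, 12 of its 17 kept regions, and so did Gpr52 with 12 of 14. Gpr52 lies wholly inside an intron of Rabgap1l, and its 14 kept regions cannot be assigned to one of these genes from the peaks. Of the 6 kept regions around Chrm4, 4 had an intronic strongest summit. A cyclic AMP response element was found within 100 bp of the strongest summit in 1 of the 60 kept regions, 1.67% against 0.502% of all kept regions. It is the same element that was described before the start of Gpr6 and is no further match.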
